A study of Rattus norvegicus with 36 samples.

Results

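The comparison described here sets a stable CG-4 line labelled as carrying a short hairpin RNA (shRNA) against QKI beside untreated CG-4 cells. CG-4 is a rat line of oligodendrocyte progenitor cells. Members were taken by array title at the gene level: 3 arrays of the QKI shRNA line and 3 of untreated cells, 6 of the 18 arrays in the study. All 18901 transcript clusters of the table were tested, and 385 of them were called changed. Each changed cluster was then marked by what happened in a stable line with a non-silencing shRNA (3 arrays). The other 9 arrays, of cells with transient small interfering RNA, entered only the shared estimate of spread. All cells grew in medium conditioned by B104 cells, and the labels name a lipid reagent for transfection in every group. The sources used here do not say whether a stable line was 1 clone or a pool, give no hairpin sequence or promoter, and do not say whether untreated cells saw the transfection reagent. Since only lines as a whole can be compared, anything that differs between 2 lines apart from the hairpin cannot be told apart from it.

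QKI is an RNA-binding protein of the STAR family that is abundant in oligodendrocytes and acts on the splicing, export and stability of messenger RNA. In mice, loss of QKI in oligodendrocytes leaves the brain short of myelin, and transcripts of myelin proteins such as Mbp and Mag are among the RNAs it is reported to act on. Oligodendrocyte progenitors divide, carry proteoglycans and receptors of growth factors on their surface, and make myelin genes once they differentiate.

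Qki, the gene the hairpin is directed against, lay at log2 intensities of 10.65, 10.35 and 11.14 on the 3 QKI shRNA arrays. In untreated cells it lay at 11.85, 11.63 and 10.84, and in the non-silencing line at 10.90, 11.01 and 10.99. The first and second QKI shRNA arrays were the lowest of these 9 values, but the third QKI shRNA array was above untreated array 3 and above the whole non-silencing line. The groups overlapped. In limma's fit the log2 change of Qki was -0.73 ± 0.22 (adjusted p = 0.133), where ± is the standard error with 3 arrays a group and p is adjusted over all clusters. An exact two-sided permutation test over the 6 arrays gave p = 0.2, and 0.1 is the smallest p that 3 against 3 arrays can give. Without the third array of both groups limma gave -1.24 (adjusted p = 0.000273). Those arrays held the highest QKI shRNA value and the lowest untreated value, so leaving them out had to enlarge the fall. That p is therefore no evidence of a knockdown. With all arrays the change of Qki against the non-silencing line was -0.25 (adjusted p = 0.656). Untreated array 3, at 10.84, lay below the whole non-silencing line. QKI shRNA array 3, at 11.14, lay above that line but stayed below untreated arrays 1 and 2. Array 3 of both groups thus goes against its label in Qki, and the values do not single out either array. Every direction below rests on the labels.

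The third arrays of both groups stood apart from their partners over all clusters. QKI shRNA array 3 correlated at 0.962 and 0.958 with its own group and at 0.976 and 0.977 with the first and second untreated arrays. Untreated array 3 correlated at 0.969 and 0.971 with its own group, and at 0.973 and 0.969 with the first and second QKI shRNA arrays. It was closer to non-silencing shRNA array 1 (0.976). Its closest array in the study was array 1 of cells with transient QKI small interfering RNA (0.98). Genes of the S phase of the cell cycle separated the same arrays. Their list mean was 7.72, 7.55 and 6.07 on the QKI shRNA arrays, 6.50, 6.48 and 7.87 in untreated cells, and 7.82, 6.66 and 6.55 in the non-silencing line. The list of the G2 and M phase did likewise, with 7.87, 7.79 and 6.87 in the QKI shRNA line and 7.28, 7.16 and 8.14 in untreated cells. None of the 21 measured S phase genes and none of the 22 of the G2 and M phase was called by limma. The part of these differences in the results was not tested, so values without array 3 of both groups are given beside the results that move most. Genes such as Zdbf2 and Ndn, described next, followed the labels on all 6 arrays.

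**Figure D1:**
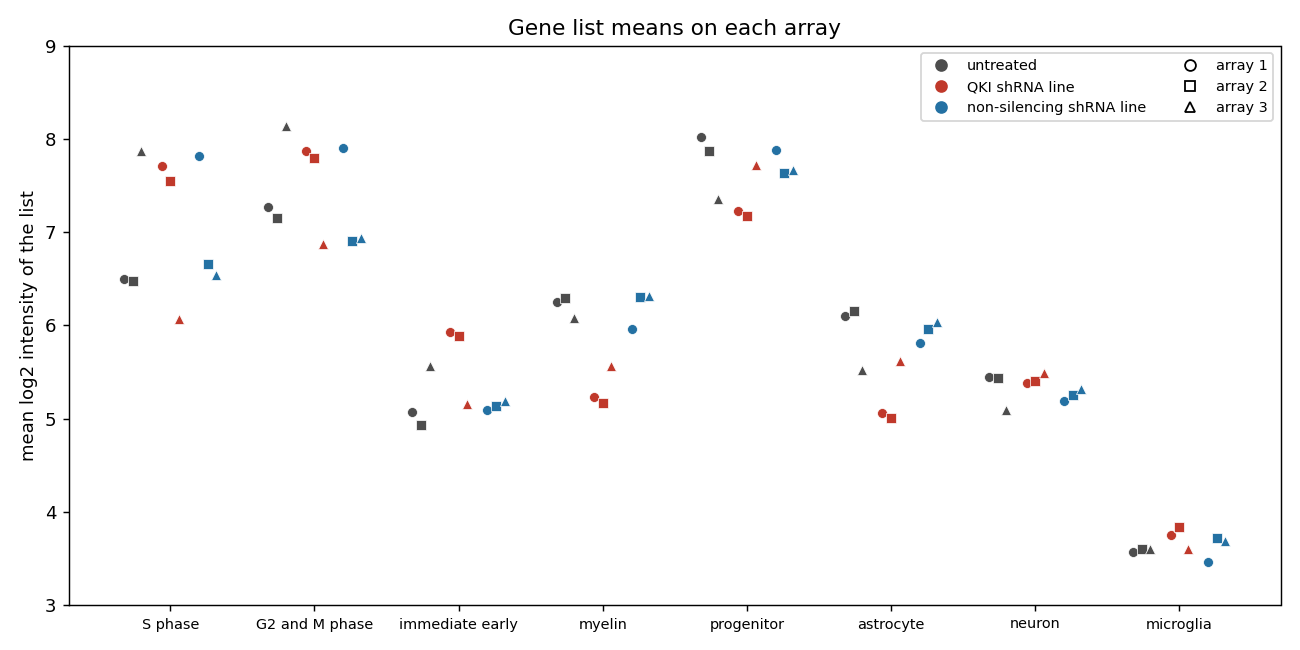
Mean log2 intensity of 8 gene lists (vertical axis) on each array of untreated cells, the QKI shRNA line and the non-silencing shRNA line, with circles, squares and triangles for arrays 1, 2 and 3. The S phase mean lies at 7.87 on untreated array 3 and at 6.07 on QKI shRNA array 3, each away from its own group, while all QKI shRNA means of the myelin list lie below all untreated ones.

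Limma called 149 clusters higher and 236 lower in the QKI shRNA line, which is 2.04% of all clusters (0.788% higher and 1.25% lower). At least a 2-fold change was found in 198 of them, 69 higher and 129 lower. The 3 and 3 arrays did not overlap in 147 of the higher and 231 of the lower clusters, which largely follows from their being called. The share without overlap over all clusters was not counted. Of the called clusters 134 higher and 215 lower had 1 gene symbol, which is 1.01% and 1.63% of all symbols. Array medians ran from 3.77 to 4.08, and no detection calls were used, so a level in that range is not shown to be above background. The untreated mean was at or under 4.08 in 39 of the higher clusters and the QKI shRNA mean in 27 of the lower ones, Zdbf2 and Hapln1 among them, so no fold is given for single genes of this kind. RNA of whole cultures was measured, so fewer cells of one kind and less RNA per cell cannot be told apart. Without array 3 of both groups 1635 clusters were called, 672 higher and 963 lower, and 346 of the 385 were among them. List counts given below for that setting stand beside this larger number of calls over all clusters. With array weights estimated by limma 52.5% of calls were higher. With only the arrays compared in the fit the calls dropped to 90 clusters, 32 higher and 58 lower. Of the 385, 79 were among them. No gene of the progenitor, neuron or immediate early lists was called in that fit.

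The non-silencing line was then read for the same clusters. Compared with the same untreated arrays it had 616 called clusters (3.26%), 468 higher (2.48%) and 148 lower (0.783%). Of the 385 changed clusters 25 were called in the same direction there, 4 higher and 21 lower, which is 6.49% of the changed clusters and 4.06% of the calls of the non-silencing line. A further 35 were called in the opposite direction, and 325 were not called there. A direct test between the 2 lines called 318 of the 385 (82.6%) in the same direction as against untreated cells, beside 10.3% of all clusters called in that test (3.38% higher and 6.9% lower). It called 280 of the 325, and left 45 that were called in neither test of the non-silencing line. All 3 tests draw on the same 9 arrays, so these counts are not independent of one another. With array 3 of both groups left out, the count shared in direction was 318 of 1635.

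**Figure D2:**
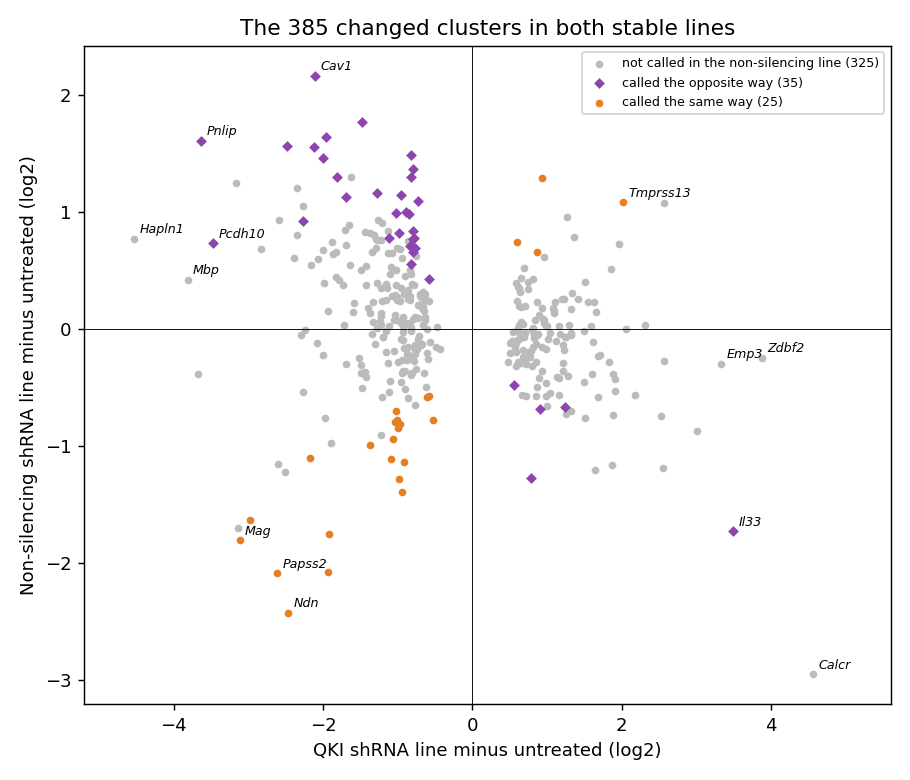
Log2 change against untreated cells of the 385 changed clusters in the QKI shRNA line (horizontal axis) and in the non-silencing shRNA line (vertical axis); both axes use the same untreated arrays. Orange points (25) were called the same way in both lines, purple diamonds (35) the opposite way, and grey points (325) were not called in the non-silencing line.

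Zdbf2 had the smallest p of the genes that rose. It is an imprinted gene, expressed from the paternal copy in mice. Its log2 intensity was 7.93, 7.81 and 7.52 in the QKI shRNA line and 3.88, 4.04 and 3.71 in untreated cells. In the non-silencing line it was 3.37, 3.77 and 3.74, so the QKI shRNA arrays stood alone. The change was 3.88 ± 0.14 (adjusted p = 2.61e-10), and -0.25 ± 0.14 in the non-silencing line (adjusted p = 0.459).

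Calcr, the receptor for calcitonin, showed the largest rise among the named genes. It lay at 11.60, 11.56 and 11.10 in the QKI shRNA line and at 7.21, 7.15 and 6.22 in untreated cells. The non-silencing line was lower still, at 4.21, 3.82 and 3.71, so the 3 groups did not overlap. The rise was 4.56 ± 0.86 (23.6-fold, adjusted p = 0.00898), while the non-silencing line had -2.95 ± 0.86 (adjusted p = 0.0759). Its relatives did not pass the test. Calcrl, a related receptor that binds CGRP and adrenomedullin, had 0.18 ± 0.60 (adjusted p = 0.963). Ramp1, Ramp2 and Ramp3, which partner these receptors at the membrane, had 0.14, -0.25 and -0.09. The ligand genes Calca, Calcb, Adm, Adm2 and Iapp had log2 changes from 0.10 to 0.27. Thus 1 of the 10 measured members of this family was called, beside 1.01% of all symbols called higher.

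Pcdh10 and Ndn fell. Pcdh10, a protocadherin of cell contacts, lay at 3.81, 3.92 and 3.56 in the QKI shRNA line, at 7.38, 7.32 and 7.02 in untreated cells, and at 8.14, 7.93 and 7.86 in the non-silencing line. Its fall of -3.48 ± 0.19 (adjusted p = 6.05e-08) stood beside a rise of 0.73 ± 0.19 in the non-silencing line (adjusted p = 0.0473). Ndn, which encodes necdin and is another imprinted gene, lay at 3.73, 3.98 and 3.83 against 6.42, 6.03 and 6.49, and at 3.85, 3.97 and 3.85 in the non-silencing line. Both lines were below untreated cells without overlap, by -2.46 ± 0.26 (adjusted p = 0.000109) and -2.42 ± 0.26 (adjusted p = 0.000684). The 2 lines did not differ from each other in Ndn beyond their spread, with a difference of -0.04 ± 0.26 (adjusted p = 0.971). Both line means, 3.85 and 3.89, lay within the range of array medians, so equal levels of Ndn are not shown.

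The promoters of these 4 genes are printed because their QKI shRNA and untreated arrays lie far apart, and because they cover the 3 marks: no call in the non-silencing line (Zdbf2, Calcr), an opposite call (Pcdh10) and a shared call (Ndn). They were chosen after the values were seen. Each is the 250 bases before the gene's start in RefSeq, build GRCr8, read 5′ to 3′ on the gene's strand, with CG dinucleotides in capitals.
Zdbf2, chr9:72203348-72203597, plus strand: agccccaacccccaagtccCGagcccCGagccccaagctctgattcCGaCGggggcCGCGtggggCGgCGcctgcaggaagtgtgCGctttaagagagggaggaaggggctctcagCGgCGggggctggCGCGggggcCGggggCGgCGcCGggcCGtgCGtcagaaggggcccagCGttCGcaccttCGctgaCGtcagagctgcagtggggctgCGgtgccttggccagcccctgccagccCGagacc
Calcr, chr4:32691076-32691325, minus strand: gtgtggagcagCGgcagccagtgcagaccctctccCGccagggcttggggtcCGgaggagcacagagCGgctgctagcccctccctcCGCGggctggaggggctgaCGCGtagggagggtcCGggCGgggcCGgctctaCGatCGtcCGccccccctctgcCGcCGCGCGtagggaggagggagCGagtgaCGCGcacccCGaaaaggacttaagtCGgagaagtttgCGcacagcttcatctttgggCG
Pcdh10, chr2:130553188-130553437, plus strand: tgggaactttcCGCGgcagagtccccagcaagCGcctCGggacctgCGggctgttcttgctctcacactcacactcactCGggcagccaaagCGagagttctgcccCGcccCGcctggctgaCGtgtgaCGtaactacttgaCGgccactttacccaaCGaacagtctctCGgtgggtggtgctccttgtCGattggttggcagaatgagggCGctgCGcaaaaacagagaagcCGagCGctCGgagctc
Ndn, chr1:125260809-125261058, plus strand: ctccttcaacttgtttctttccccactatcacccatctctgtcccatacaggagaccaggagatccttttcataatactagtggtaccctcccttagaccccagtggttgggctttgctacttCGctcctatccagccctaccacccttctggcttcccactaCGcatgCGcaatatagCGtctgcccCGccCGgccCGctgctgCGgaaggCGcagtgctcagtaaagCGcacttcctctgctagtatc
Zdbf2 and Calcr each hold 25 CG dinucleotides, and 9.74% of the 33469 promoter windows in the table hold as many or more. Pcdh10 holds 20 (16.7% of windows hold as many or more) and Ndn 10 (35.9%), beside a median of 5 over all windows. The count of CG reads the same on both strands, and methylation was not measured.

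On the list of imprinted genes no member other than Zdbf2 and Ndn was called. Of 16 measured, 1 was called higher and 1 lower (2 and 2 without array 3 of both groups), beside 1.01% and 1.63% of all symbols. The list's median was 0.03 beside 0.06 over all 13206 symbols. Igf2r, a receptor that clears IGF2, had 0.62 ± 0.18 (adjusted p = 0.109). Nnat, which encodes neuronatin, had -1.14 ± 0.29 (adjusted p = 0.0561), and Plagl1, a zinc finger factor, had -1.20 ± 0.42 (adjusted p = 0.216). Dlk1, a Notch ligand relative, was one that followed the third arrays: it lay at 8.34, 8.54 and 5.39 in the QKI shRNA line and at 5.83, 5.71 and 8.11 in untreated cells. Cdkn1c and Igf2 had -0.54 and -0.40, and the remaining 8 had log2 changes between -0.15 and 0.13, none of them called.

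**Figure D3:**
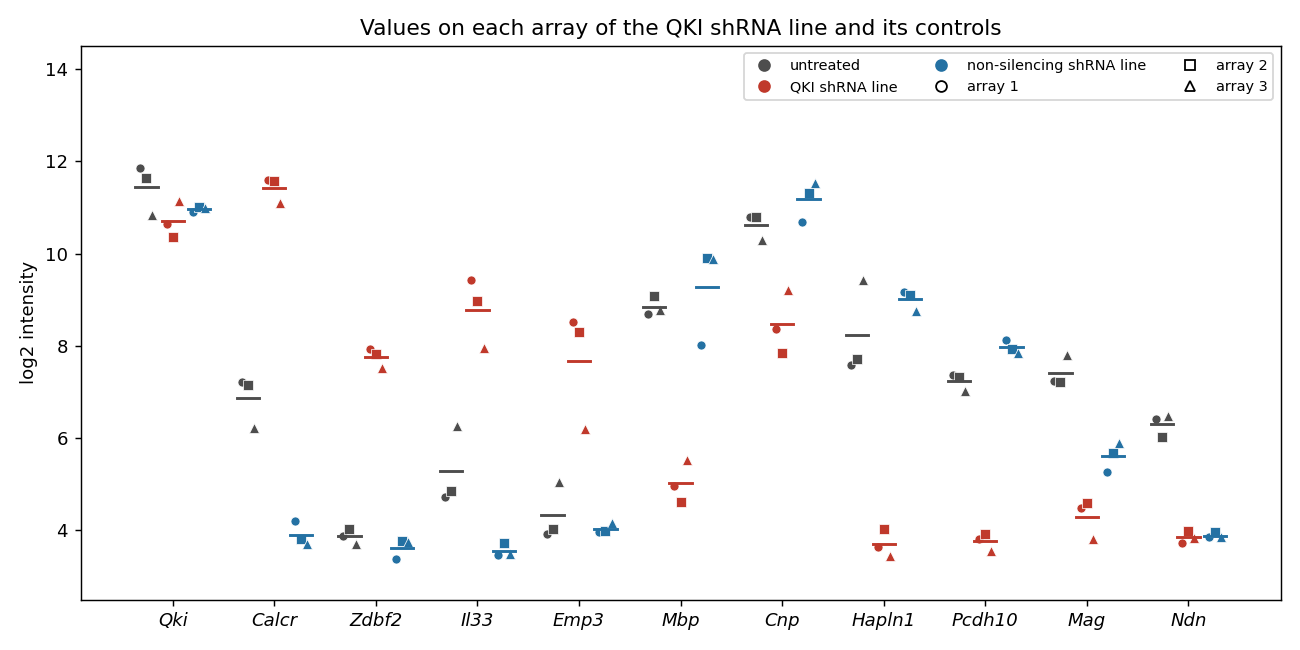
Log2 intensity (vertical axis) of 11 genes on each array of untreated cells (grey), the QKI shRNA line (red) and the non-silencing shRNA line (blue), with circles, squares and triangles for arrays 1, 2 and 3 and a line at each group mean. Zdbf2 lies at 7.52 to 7.93 in the QKI shRNA line alone, Ndn lies at 3.73 to 3.98 in both stable lines, and Qki overlaps between groups.

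Of the 33 listed myelin genes 27 were measured, and 7 of these were called lower and 0 higher, beside 1.63% of all symbols called lower and 1.01% higher. The list's median log2 change was -0.62, and 19 of the 27 members were below 0. Mbp, which encodes myelin basic protein, lay at 4.97, 4.62 and 5.52 in the QKI shRNA line and at 8.69, 9.09 and 8.79 in untreated cells. The non-silencing line, at 8.03, 9.91 and 9.89, was spread around the untreated level. The fall of Mbp was -3.81 ± 0.70 (14.1-fold, adjusted p = 0.0076), and the 2 lines differed by -4.24 ± 0.70 (adjusted p = 0.000919). Mbp and Mag are also 2 of the 6 measured genes on the list of reported QKI targets, in which no other member was called.

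Cnp and Ugt8 fell in the QKI shRNA line and were not called in the other. Cnp, an enzyme of the myelin sheath's inner face, lay at 8.36, 7.85 and 9.20 against 10.80, 10.79 and 10.29, a change of -2.16 ± 0.34 (adjusted p = 0.00257). Ugt8, which makes galactosylceramide for myelin, lay at 6.18, 5.84 and 7.85 against 9.33, 8.99 and 8.37, a change of -2.27 ± 0.46 (adjusted p = 0.0147). In both genes QKI shRNA array 3 was the highest of its group and untreated array 3 the lowest of its own. The difference between the 2 lines was called for Cnp (-2.71, adjusted p = 8.92e-05) and for Ugt8 (-1.74, adjusted p = 0.0237).

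Mag, Mog and Enpp6 fell in both stable lines. Mag, a myelin glycoprotein that contacts the axon, lay at 4.49, 4.59 and 3.81 in the QKI shRNA line, at 7.24, 7.21 and 7.80 in untreated cells and at 5.26, 5.68 and 5.90 in the non-silencing line. The groups did not overlap, with changes of -3.12 ± 0.43 (adjusted p = 0.0011) and -1.80 ± 0.43 (adjusted p = 0.0323), but the difference of -1.31 between the lines did not pass (adjusted p = 0.0685). Mog, a glycoprotein of the outer myelin surface, had -0.92 ± 0.19 (adjusted p = 0.017) and -1.13 in the non-silencing line (adjusted p = 0.00622). Enpp6, a choline phosphodiesterase of newly forming oligodendrocytes, had -0.94 ± 0.19 (adjusted p = 0.0153) and -1.39 (adjusted p = 0.00161). For these 2 genes the lines did not differ beyond their spread, with 0.21 for Mog (adjusted p = 0.673) and 0.45 for Enpp6 (adjusted p = 0.186). Their means in the lines, from 3.68 to 4.14, lay near the array medians, so equal levels are not shown.

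Lpar1, a receptor for lysophosphatidic acid found on maturing oligodendrocytes, moved opposite ways. It lay at 6.21, 6.16 and 7.002 in the QKI shRNA line, at 8.49, 8.37 and 8.39 in untreated cells, with a mean of 10.06 ± 0.07 (SD, n = 3) in the non-silencing line. Its change was -1.96 ± 0.36 (adjusted p = 0.00794) beside 1.64 ± 0.36 (adjusted p = 0.0233). Enpp2, or autotaxin, which produces that lipid, was the member most split by array. It lay at 5.64, 5.11 and 9.29 against 9.74, 9.82 and 9.05, so QKI shRNA array 3 was inside the untreated range, and its change of -2.86 ± 0.77 did not pass (adjusted p = 0.0761). Nfasc, which organises the node of Ranvier, had -1.44 ± 0.44 (adjusted p = 0.133) and Fa2h, an enzyme of myelin lipids, -1.24 ± 0.32 (adjusted p = 0.0595). Mobp, Mal, Cldn11, Opalin, Aspa, Ermn, Car2 and Cntn2 had changes between -0.12 and 0.36, none of them called. Their means were under 4.08, the highest array median, in all 3 groups. They are not shown to be above background, so a fall could not show, yet they count among the 27. When array 3 of both groups was left out, 12 of the 27 were called lower and 0 higher, with a median of -0.77. Without QKI shRNA array 1 or 2, or untreated array 1 or 2, 4 were called lower in each case. With only the arrays compared in the fit 3 were called lower.

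**Figure D4:**
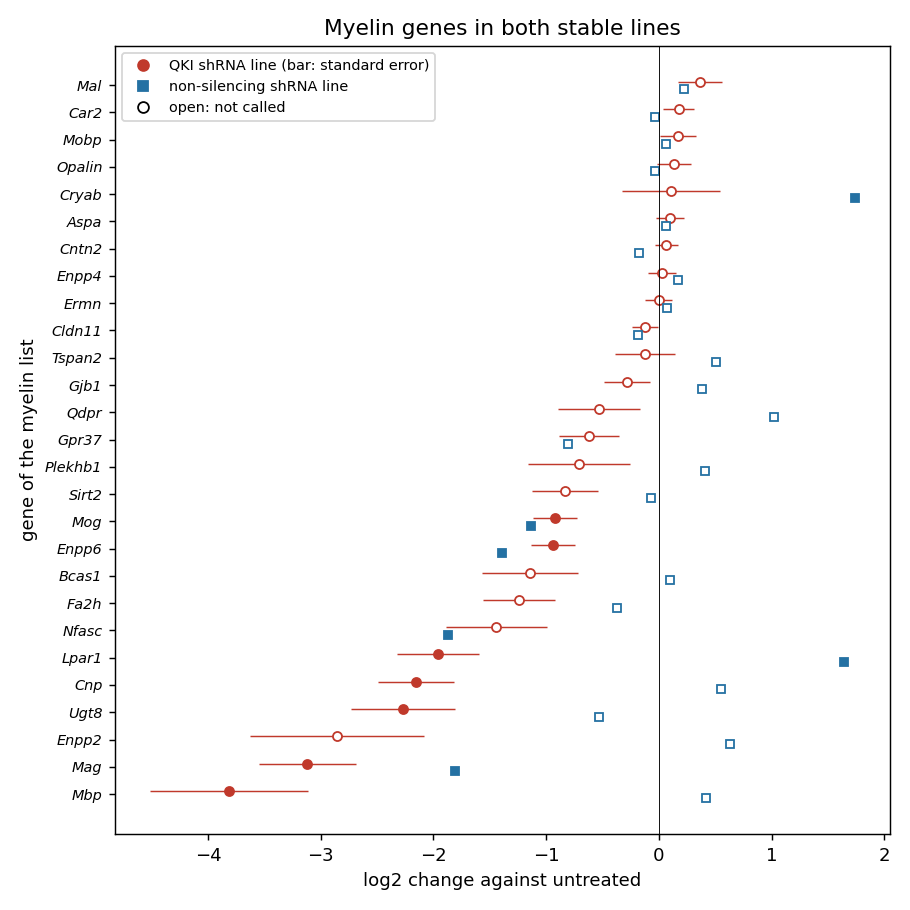
Log2 change against untreated cells (horizontal axis) of the 27 measured myelin genes in the QKI shRNA line (circles, with bars of 1 standard error) and in the non-silencing shRNA line (squares); filled symbols were called, open ones were not. Mbp, Cnp and Ugt8 are filled for the QKI shRNA line alone, Mag, Mog and Enpp6 are filled on the left for both lines, and Lpar1 is filled on opposite sides.

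Markers of earlier oligodendrocyte stages were checked next. Olig1, Sox10 and Nkx2-2, transcription factors of the lineage, had lowest values of 8.64, 8.69 and 7.27 on the 6 arrays, above array medians that ran from 3.77 to 4.08. Cspg4, a surface proteoglycan of progenitors, was near the array median, with a mean of 3.72 in the QKI shRNA line and 3.65 in untreated cells. Pdgfra and Olig2 were not analysed here. Of 22 measured progenitor genes 1 was called, lower, beside 1.63% of all symbols called lower, with a list median of -0.37. That gene was Gpr17, a receptor of precursors committed to differentiate, at 5.93, 5.77 and 7.30 against 9.37, 9.61 and 7.56. Its groups came close at the third arrays, and its change was -2.51 ± 0.49 (adjusted p = 0.0108), or -3.64 without them. The non-silencing line had -1.22 ± 0.49 (adjusted p = 0.215), and the difference between the lines did not pass (adjusted p = 0.123). On the other 4 arrays of both groups 8 of the 22 progenitor genes were called lower.

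Hapln1 and Acan, of the extracellular matrix around cells, fell. Hapln1, the link protein that fastens proteoglycans to hyaluronan, lay at 3.65, 4.04 and 3.44 in the QKI shRNA line, at 7.58, 7.72 and 9.43 in untreated cells and at 9.18, 9.11 and 8.75 in the non-silencing line. The QKI shRNA line was apart from both, with -4.53 ± 0.40 (adjusted p = 3.23e-05) against untreated cells and -5.30 ± 0.40 against the other line (adjusted p = 1.55e-06). Acan, which encodes the proteoglycan aggrecan, lay at 3.73, 3.98 and 3.68 against 6.92, 6.73 and 7.18. The non-silencing line lay between them at 5.21, 5.14 and 5.38. Acan had -3.15 ± 0.55 in the QKI shRNA line (adjusted p = 0.00587) and -1.70 ± 0.55 in the other (adjusted p = 0.112), and the lines did not differ by the test (adjusted p = 0.124).

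Over the whole matrix list calls went both ways. Of 35 measured, 2 were called higher and 2 lower, beside 1.01% and 1.63% of all symbols, with a median of 0.06. Without array 3 of both groups 4 were called higher and 6 lower. Col4a1, a collagen of basement membranes, rose by 0.79 ± 0.14 (adjusted p = 0.0074), and Fn1, fibronectin, by 0.77 ± 0.12 (adjusted p = 0.00355). Fbln5, of elastic fibres and not on that list, lay at 6.47, 5.86 and 5.58 against 3.88, 3.96 and 3.88 and rose by 2.06 ± 0.19 (adjusted p = 3.9e-05). The non-silencing line had 0.00 ± 0.19 for Fbln5 (adjusted p = 0.999). Papss2, which makes the sulfate donor used on proteoglycans, fell in both lines: it lay at 3.94, 3.94 and 3.59 against 6.75, 6.87 and 5.70, and at 4.28, 4.41 and 4.37 in the non-silencing line. Its changes were -2.62 ± 0.28 (adjusted p = 0.000125) and -2.09 ± 0.28 (adjusted p = 0.00131). The lines did not differ beyond their spread (adjusted p = 0.323), but the QKI shRNA mean of 3.82 lay within the range of array medians.

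Among cadherins 3 of 20 measured members were called, all lower, with a list median of -0.17, beside 1.63% of all symbols called lower. Without array 3 of both groups 8 were called lower, with a median of -0.69, and without QKI shRNA array 1 or 2 or untreated array 1 it was 1. Beside Pcdh10 these were Pcdh9, a further protocadherin, with -1.35 ± 0.26 (adjusted p = 0.00953), and Cdh6, a classical type II cadherin, with -1.23 ± 0.22 (adjusted p = 0.00752). Neither was called in the non-silencing line, and both differed between the lines (adjusted p = 0.000103 and 0.00089). Dchs1, a giant cadherin of planar polarity that was not on the list, fell in both lines. It lay at 3.83, 4.17 and 4.03 against 6.14, 5.61 and 6.09, with -1.94 ± 0.26 (adjusted p = 0.000799), beside -2.08 ± 0.26 in the non-silencing line (adjusted p = 0.00092). The means of Dchs1 in both lines, 4.01 and 3.87, lay within the range of array medians. Epcam, an adhesion molecule of epithelia, rose by 2.31 ± 0.32 (adjusted p = 0.0011), from 3.28, 3.38 and 3.53 to 6.21, 6.36 and 4.53, and had 0.03 in the non-silencing line.

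Emp3 rose and Cav1 fell, both genes of membrane proteins. Emp3, a tetraspan protein related to PMP22, lay at 8.51, 8.31 and 6.20 in the QKI shRNA line and at 3.93, 4.03 and 5.06 in untreated cells. Its change was 3.34 ± 0.45 (adjusted p = 0.000892), or 4.43 without array 3 of both groups, and the non-silencing line had -0.30 (adjusted p = 0.861). Cav1, the main coat protein of caveolae, lay at 7.72, 7.23 and 5.61 against 8.33, 8.66 and 9.91, and at 11.62, 10.93 and 10.84 in the non-silencing line. Its change was -2.11 ± 0.45 (adjusted p = 0.018) beside 2.16 ± 0.45 (adjusted p = 0.0177), and without array 3 of both groups the fall was -1.02 (adjusted p = 0.0285). Pmp22 had -1.34 ± 0.37 (adjusted p = 0.0838), and rose by 1.499 in the non-silencing line (adjusted p = 0.0376). Emp1, Emp2, Cav3, Cavin2, Cavin3, Cavin4 and Pacsin2, the remaining members of 10 measured, had changes between -0.15 and 0.41, none of them called. Among all symbols 1.01% were called higher and 1.63% lower.

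Il33, a nuclear cytokine released from damaged cells and found in oligodendrocytes and astrocytes, moved opposite ways in the lines. It lay at 9.42, 8.97 and 7.95 in the QKI shRNA line, at 4.72, 4.86 and 6.27 in untreated cells and at 3.46, 3.72 and 3.48 in the non-silencing line. The 3 groups did not overlap, with a rise of 3.50 ± 0.43 (11.3-fold, adjusted p = 0.000463) and a fall of -1.73 ± 0.43 (adjusted p = 0.0413). Without array 3 of both groups the rise was 4.41. Tril, a partner of Toll-like receptor 4 that astrocytes express, fell from 8.28, 7.82 and 7.14 to 4.44, 4.27 and 5.03, by -3.17 ± 0.38 (adjusted p = 0.000325). Cd14, a co-receptor of the same pathway, rose by 1.22 ± 0.23 (adjusted p = 0.00974). Irak3, an inhibitor of that signalling, rose by 0.99 ± 0.23 (adjusted p = 0.0314), but without array 3 of both groups it was 0.51 and not called (adjusted p = 0.133). Of 17 measured genes of this list 3 were called higher and 1 lower, beside 1.01% and 1.63% of all symbols, with a median of 0.19.

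Antigen processing and interferon-related genes held 3 called rises among 24 measured, with a median of 0.14, beside 1.01% of all symbols called higher. Calls were 2 higher and 3 lower on this list without array 3 of both groups. Psmb8, a subunit of the immunoproteasome, rose by 1.88 ± 0.23 (adjusted p = 0.000327). Bst2, or tetherin, rose by 1.12 ± 0.16 (adjusted p = 0.00136) and lay at 5.35 ± 0.04 (SD, n = 3) against 4.23 ± 0.04 (SD, n = 3). Tap2, a subunit of the peptide transporter of antigen presentation, rose by 0.65 ± 0.15 (adjusted p = 0.0368), a call lost without array 3 of both groups (adjusted p = 0.102). None of the 3 was called in the non-silencing line, and all 3 differed between the lines (adjusted p = 1.48e-05, 0.000142 and 0.00586).

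Receptors of growth factors held 3 called rises among 23 measured, with a median of -0.07, beside 1.01% of all symbols called higher. Leaving out array 3 of both groups gave 4 higher and 3 lower, with a median of -0.16. Fgfr1, a receptor of fibroblast growth factors, rose by 1.28 ± 0.19 (adjusted p = 0.00178). Met, the receptor of hepatocyte growth factor, rose by 0.98 ± 0.23 (adjusted p = 0.0386). Axl, a receptor of GAS6, lay at 6.79, 6.60 and 7.05 against 6.06, 5.97 and 6.06, and at 4.60, 4.83 and 4.86 in the non-silencing line. It rose by 0.78 ± 0.15 (adjusted p = 0.00974) and fell in the non-silencing line by -1.27 ± 0.15 (adjusted p = 0.000859). Kitlg, the ligand of the Kit receptor, was called with groups that overlapped: it lay at 8.001, 7.47 and 4.57 against 3.86, 3.76 and 4.74. Its change was 2.56 ± 0.60 (adjusted p = 0.0359), or 3.93 without array 3 of both groups.

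Immediate early genes, which respond within minutes to growth signals, had 2 called rises among 30 measured, beside 1.01% of all symbols called higher. The list's median was 0.31, and 27 of the 30 were above 0. Egr3, a zinc finger factor of that class, lay at 7.88, 8.08 and 6.38 against 4.92, 4.51 and 5.33 and rose by 2.52 ± 0.60 (adjusted p = 0.038). Ier5 rose by 0.63 ± 0.15 (adjusted p = 0.038). Others split by array: Dusp6, a phosphatase that turns off ERK, lay at 10.58, 10.46 and 6.38 in the QKI shRNA line and at 6.61, 6.48 and 10.62 in untreated cells, and its change of 1.24 ± 1.10 did not pass (adjusted p = 0.818). The list mean itself was 5.93, 5.88 and 5.16 against 5.07, 4.93 and 5.57, so the groups overlapped. Without array 3 of both groups 6 of the 30 were called higher, and without QKI shRNA array 1 or 2 or untreated array 1 or 2 it was 0.

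Several further genes with the largest changes encode transporters, receptors and secreted or vesicle proteins. Slc38a4, a transporter of neutral amino acids, lay at 7.56, 7.51 and 7.37 against 4.81, 4.84 and 3.75 and rose by 3.01 ± 0.50 (adjusted p = 0.00457). It was the only called member of 27 amino acid transporters, beside 1.01% of all symbols called higher. Without array 3 of both groups 5 of these transporters were called higher and 3 lower. Syt4, a synaptotagmin of secretory vesicles, rose by 2.55 ± 0.59 (adjusted p = 0.0353), a call lost without array 3 of both groups (2.08, adjusted p = 0.0909). Hrh1, the histamine H1 receptor, rose by 2.17 ± 0.51 (adjusted p = 0.0369), and F3, tissue factor, by 1.96 ± 0.37 (adjusted p = 0.00863). Pnlip, known as the lipase of pancreas, lay at 5.71, 5.54 and 7.03 against 9.80, 10.01 and 9.39, and at 11.23, 11.42 and 11.38 in the non-silencing line. It fell by -3.64 ± 0.36 (adjusted p = 7.43e-05) and rose by 1.61 ± 0.36 in the non-silencing line (adjusted p = 0.0257). Rtn1, a reticulon of the endoplasmic reticulum, fell by -2.59 ± 0.35 (adjusted p = 0.000986).

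A group of falls set the QKI shRNA line apart while the non-silencing line stayed within 0.5 of untreated cells on the log2 scale. Prkg2, a cGMP-dependent kinase, lay at 4.22, 4.30 and 4.96 against 7.01, 6.84 and 6.51, and at 6.53, 6.89 and 6.80 in the non-silencing line. The QKI shRNA arrays were below all others, with -2.30 ± 0.21 against untreated cells (adjusted p = 3.34e-05) and -2.25 ± 0.21 against the other line (adjusted p = 8.64e-06). Ptpro, a receptor-type tyrosine phosphatase, had -2.005 ± 0.30 (adjusted p = 0.00178), and Dab1, the adaptor of Reelin signalling, -1.94 ± 0.27 (adjusted p = 0.00114). Tceal8 had -2.09 ± 0.30 (adjusted p = 0.00138). These genes were picked because limma's test between the lines called them too (adjusted p from 8.64e-06 to 0.00106). That call is therefore part of the choice and not a further result.

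The 25 clusters shared with the non-silencing line comprised 20 with 1 gene symbol. Tmprss13, Nefl and Ociad1 were higher in both. Tmprss13, a membrane serine protease, lay at 7.64, 7.56 and 7.24 in the QKI shRNA line, at 5.11, 5.30 and 5.96 in untreated cells and at 6.83, 6.35 and 6.44 in the non-silencing line, so the other line took a middle place. It rose by 2.02 ± 0.28 (adjusted p = 0.000986) and by 1.08 ± 0.28 (adjusted p = 0.0433), and the lines differed by 0.94 (adjusted p = 0.0394). Nefl, the light subunit of neurofilaments, rose by 0.94 ± 0.20 (adjusted p = 0.017) and by 1.29 ± 0.20 (adjusted p = 0.00286). Ociad1 rose by 0.86 ± 0.15 (adjusted p = 0.00486) and by 0.66 ± 0.15 (adjusted p = 0.0233).

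Beside Ndn, Papss2, Dchs1, Mag, Mog and Enpp6, the shared falls with a symbol were Strn, Tppp3, Igf2bp3, Tmem108, Tmem163, Sgms2, Ppp1r16b, Plekhg1, Map4k3, Prkd3 and Rps6ka6. Strn, or striatin, a scaffold of a protein phosphatase complex, fell by -2.17 ± 0.23 (adjusted p = 0.000125) and by -1.10 ± 0.23 (adjusted p = 0.0184). The fall of Strn was larger in the QKI shRNA line by the test between the lines (-1.07, adjusted p = 0.00616). Of the 25 clusters, Tmprss13, Strn and 1 without a gene name differed between the lines, and 22 did not pass that test.

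Of the 35 clusters called in opposite directions, 33 had 1 gene symbol, 28 of them lower in the QKI shRNA line and higher in the non-silencing line. All 35 differed between the lines by the direct test, which follows from opposite calls against the same untreated arrays. With both changes at least 2-fold there were 11: Il33, Pnlip, Gpr37l1, S100b, Cav1, Jag1, Lpar1, Sdf2l1, Slc22a17, Mgll and Akap6. S100b, a calcium-binding protein of glia, lay at 4.46, 4.17 and 5.02 in the QKI shRNA line, at 6.44, 6.72 and 6.87 in untreated cells and at 7.97, 8.26 and 8.47 in the non-silencing line. The 3 groups formed steps without overlap, with -2.13 ± 0.28 (adjusted p = 0.000658) and 1.56 ± 0.28 (adjusted p = 0.00794). Jag1, a ligand of Notch receptors, had -2.003 ± 0.32 (adjusted p = 0.00301) and 1.46 ± 0.32 (adjusted p = 0.023). It was the only called gene of 26 on the list of Notch and Wnt signalling, beside 1.63% of all symbols called lower. Without array 3 of both groups 5 genes of that list were called lower. Gpr37l1, an orphan receptor of glia, had -2.48 ± 0.41 (adjusted p = 0.00366) and 1.56 ± 0.41 (adjusted p = 0.0466). Mgll, which breaks down the endocannabinoid 2-arachidonoylglycerol, had -1.48 ± 0.35 (adjusted p = 0.0394) and 1.76 ± 0.35 (adjusted p = 0.0149). Lyn, a Src-family kinase, had -0.80 ± 0.17 (adjusted p = 0.0224) and 1.36 ± 0.17 (adjusted p = 0.00112). In the other direction stood Il33, Axl, Gas2l1, Gripap1 and Frmd3.

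Markers of other cell types were read against 1.01% of all symbols called higher and 1.63% lower. Of 18 measured astrocyte genes S100b, Tril and Gpr37l1 were called lower (16.7%) and none higher, with a median of 0.01, while Gfap, the astrocyte filament gene, had 0.58 (adjusted p = 0.837). Astrocyte list means were 5.06, 5.001 and 5.61 in the QKI shRNA line and 6.11, 6.15 and 5.52 in untreated cells, so the groups overlapped, and 7 were called lower without array 3 of both groups. Of 22 neuronal genes Syt4 and Nefl were called higher (2 higher and 3 lower without array 3 of both groups), with means from 5.39 to 5.49 against 5.10 to 5.45. Of 16 microglial genes Cd14 alone was called, with list means from 3.60 to 3.83 against 3.57 to 3.60, and the defining markers Aif1, Csf1r, Cx3cr1 and Ptprc were at or below 3.97 on all 6 arrays, under the highest array median. None of 11 Schwann cell, 14 fibroblast and mural, or 8 endothelial genes was called by limma. None of the 17 measured genes of cholesterol synthesis was called in the QKI shRNA line. In the non-silencing line 4 of them were called higher, beside 2.48% of all clusters. The test between the lines called 8 of them lower, beside 6.9% of all clusters. Among 29 splicing regulators Mbnl2, a muscleblind protein that binds RNA, was the only call, with -0.94 ± 0.22 (adjusted p = 0.0394). Its groups overlapped, at 6.600, 6.45 and 7.34 against 8.03, 7.94 and 7.22, and the call was lost in 11 of 18 alternatives. Without array 3 of both groups Mbnl2 had -1.46, and the list 1 higher and 5 lower. Hnrnpa1 had -0.11 ± 0.19 (adjusted p = 0.927).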

How the data were processed

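Affymetrix rat exon arrays measured the RNA of each CG-4 sample. The deposited gene-level values are log2 intensities, from 2.30 to 14.3; the authors used RMA and Partek, per the submitters' processing notes. Their versions, the genome build and the annotation were not stated in the sources used here. No read depth applies to intensities, and the number of arrays limits the precision. Exon-level log2 values deposited for the same arrays served as an alternative. The platform annotation named 13327 of 18901 clusters with 1 symbol, and 620 held several. RefSeq (GRCr8) updated the names, which left 13206 symbols, each taken at its brightest cluster by mean.

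Group means were fitted to all 18 arrays in limma 3.58.1 (R 4.3.3), with 12 residual and 3.57 prior degrees of freedom. Tests were two-sided, p-values were adjusted by Benjamini-Hochberg over the 18901 clusters, and "called" means an adjusted p under 0.05. The step was also tested on simulated data for this comparison (18901 clusters). There it found 32.8% of changes of 1.5-fold, 67.2% of 2-fold and 95.5% of 4-fold changes and made 2 false calls. These rates describe the simulated data only. They were not shown to hold where whole arrays stand apart from their group, as the third arrays do here. The labels call the arrays biological replicates without naming separate cultures, so p-values measure the spread between these samples, which may be technical. Called genes were named by size. The first were the 12 largest per direction with a mean over all arrays at or above the 25th percentile. Only genes whose QKI shRNA and untreated arrays did not overlap could enter these 12, so that lack of overlap is part of the choice. Added were the 5 largest per direction shared with the non-silencing line or called against both controls, and those called in opposite directions. Up to 4 per list were added too, and the text gives a part of all these. Members and the 24 gene lists were chosen with earlier results of these data known. Same-numbered arrays of the QKI shRNA line and untreated cells did not deviate together (correlations of -0.32, -0.13 and -0.51), so the numbers do not pair them.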

Additional observations from a re-analysis of the deposited data

Results flagged for a closer look

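For 11 genes both stable lines were called at least 2-fold away from the same untreated arrays, in opposite directions, and limma's test between the lines called each difference. On the log2 scale the QKI shRNA line minus the non-silencing line was 5.22 for Il33, -5.25 for Pnlip, -4.04 for Gpr37l1, -3.68 for S100b, -4.28 for Cav1, -3.46 for Jag1 and -3.60 for Lpar1. It was -3.11 for Sdf2l1, -2.83 for Slc22a17, -3.25 for Mgll and -2.44 for Akap6. The adjusted p of these differences lay between 7.64e-07 (Pnlip) and 8.19e-05 (Akap6). The 11 were picked for their opposite calls against the same untreated arrays, and a called difference between the lines follows from that choice. Their directions and these p-values are thus a description and add no further evidence. Groups of 3 arrays are too small for a test of single outlying arrays.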

How the results depend on the processing

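Under 18 alternatives 25 of the 77 called named genes kept their call in every one, and none of the 77 changed direction. Hnrnpa1, not called, ranged from -0.41 without array 3 of both groups to 0.043 without untreated array 1, and was -0.32 without untreated array 3. With only the arrays compared in the fit 90 clusters were called (32 higher, 58 lower; 79 of the 385 among them), 13 shared in direction, 75 also called against the non-silencing line, 31 of the named genes and 17 list members. Median centring gave 233 (77 higher, 156 lower), 11 shared and 192 against both controls. Quantile normalization gave 498, with 224 higher and 38 shared. Array weights gave 3642 (1911 higher, 1731 lower), 899 shared, 2153 against both, 172 list members beside 39, and Qki at -1.02 (adjusted p = 0.000175). Without array 3 of both groups there were 1635 (672 higher, 963 lower), 318 shared, 999 against both, 100 list members, and Qki at -1.24. The exon-level medians gave Qki at -0.80 (adjusted p = 0.0252). At least 2-fold, 198 were called and 9 shared.

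Leaving out 1 array of the 3 groups at a time, calls ranged from 175 to 845 (higher 73 to 306, lower 96 to 539), shared calls from 7 to 93, calls against both controls from 153 to 671, named genes from 47 to 77 and list members from 24 to 66. Calls were lowest without QKI shRNA array 1 or untreated array 1 (175 each), followed by QKI shRNA array 2 (177) and untreated array 2 (205), and highest without QKI shRNA array 3 (845). Shared calls were fewest without untreated array 1 (7) and most without untreated array 3 (93); without non-silencing arrays 1, 2 and 3 they were 16, 17 and 12. The change of Qki ranged from -1.03 to -0.52. Limma called it without QKI shRNA array 3 (adjusted p = 0.0259) or untreated array 3 (adjusted p = 0.00825). In Qki each of these arrays was the one of its group nearest the other group, so leaving it out had to enlarge the fall. The cause of the shifts in calls was not tested. With the replicate number as a block 443 clusters were called, 367 of them among the 385. The titles link same-numbered arrays by that number alone. The number of arrays and probe signals near the array median limit what small changes can show.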
